A study of Mus musculus with 24 samples.

Results

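Carboxylesterases, UDP-glucuronosyltransferases, cytosolic sulfotransferases and flavin-containing monooxygenases were examined in mouse liver RNA-seq. The set was every gene whose symbol starts with Ces1, Ces2, Ces3, Ugt1a, Ugt2a, Ugt2b, Ugt3a, Sult or Fmo followed by digits or letters, and whose level was at least 1 FPKM (fragments per kilobase of transcript, scaled to library size) in at least 6 of 24 libraries. It held 39 members of 55 genes with such symbols, among 17537 genes listed in all and 10697 genes that passed the same level filter. The members were 6 Ces1, 5 Ces2, 2 Ces3, 5 Ugt1a, 1 Ugt2a, 6 Ugt2b, 2 Ugt3a, 7 Sult and 5 Fmo genes. The name rule also took in Fmod, which encodes the matrix protein fibromodulin and is no monooxygenase, and Ces2d-ps, a pseudogene.

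The livers came from male C57BL/6 mice of 20-30 g dosed by gavage. DE mice received 2500 mg/kg body weight DEHP, the plasticizer di(2-ethylhexyl) phthalate, together with ethanol at 1 g/kg. DEHP mice received DEHP at 2500 mg/kg, EtOH mice ethanol at 1 g/kg, and CT mice 0.5% CMC, a carrier. The carrier is named for CT alone, so carrier and treatment cannot be told apart if the other groups did not receive it, and neither the duration of dosing nor the age is given. Each group had 12 mice and 6 libraries, and whether a library held a single animal or a pool is not stated. No label ties a library to an animal, so the p-values measure the spread between these libraries.

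These enzymes make foreign and endogenous compounds easier to excrete. Carboxylesterases of the endoplasmic reticulum cleave esters, among them drugs, acylglycerols and phthalate diesters. Flavin-containing monooxygenases oxidise nitrogen and sulfur centres, UDP-glucuronosyltransferases attach glucuronic acid to hydroxyl, carboxyl or amine groups, and sulfotransferases attach sulfate from the donor PAPS. DEHP is known to be cleaved to a monoester that is excreted partly as a glucuronide in mice, and a small part of ethanol is excreted as ethyl glucuronide and ethyl sulfate. Several of these genes are known targets of the nuclear receptors PPAR alpha, CAR and PXR.

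Library totals lay between 7324793 and 8016662 expected counts, and members took 1.01 to 1.39% of a library. Skeletal muscle markers summed to 4446 FPKM in DE replicate 6 and 6083 FPKM in CT replicate 1, against at most 4.2 FPKM in the other libraries, and pancreatic acinar markers reached a sum of 511 FPKM in 1 library, DEHP replicate 6, with 38.2 FPKM or less in every other library. Members whose call in a comparison was lost or gained without these 3 libraries are given with that value too. The 8 hepatocyte markers, all present, summed to medians of 41550 FPKM in DE livers, 42780 in DEHP livers, 56550 in EtOH livers and 61030 in CT livers, and the part of this in the results was not tested. In bulk tissue, fewer cells of a type and less RNA per cell cannot be told apart.

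Treatment with DEHP went with changes in both directions among the members. In DEHP against CT livers, 11 of 39 members rose and 7 fell by edgeR's quasi-likelihood test at an adjusted p (Benjamini-Hochberg over all 10697 genes) below 0.05, where 14.4% of all genes tested rose and 11.6% fell. In DE against CT livers, 10 members rose and 7 fell, against 19.3% and 17.4% of all genes. In EtOH against CT livers, 5 members rose and 1, Fmo5, fell, against 14.2% and 14.5% of all genes. The pseudogene Ces2d-ps counts as a riser in each of these comparisons. It had 0 CT libraries at 1 FPKM, so the level filter favoured that rise. The median absolute log2 change was 0.46 for members and 0.21 for all genes tested in DEHP against CT, 0.32 and 0.25 in DE against CT, and 0.24 and 0.23 in EtOH against CT. These comparisons share the 6 CT libraries, so their counts are not independent of each other. Without CT replicate 1, 11 members fell in DE against CT and 3 fell in EtOH against CT, where 17.9% and 13.2% of all genes fell. Among risers, Ces1f and Ugt3a1 then lost their call in DE against CT, where 17.5% of all genes rose. In EtOH against CT, Ces1f and Ces2d-ps lost theirs and Ces2c and Fmod gained one, where 11.5% of all genes rose. Without the 3 libraries with muscle or pancreas transcripts, 8 members rose and 6 fell in DEHP against CT, where 10.7% of all genes rose and 8.93% fell. In DE against CT 9 rose and 12 fell without them, against 16.9% and 18.1% of all genes, and in EtOH against CT 5 rose and 3 fell, against 11.4% and 13.5%.

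With both agents set against each agent alone, DE against DEHP called 0 members in either direction, where 0.0467% of all genes rose and 0.0748% fell. At an unadjusted p below 0.05 there were 3 members, Ces1b, Ces1g and Ugt3a2, with log2 changes of -0.50, -0.38 and -0.21 by edgeR and adjusted p of 0.235, 0.366 and 0.358, where 10.8% of all genes had such a p. DESeq2 also called 0. In DE against EtOH livers, 8 members rose and 12 fell, against 15.1% and 12.7% of all genes. The interaction, which is DE minus DEHP less EtOH minus CT on the log2 scale, called 0 members by edgeR, where 3.32% of all genes were higher and 3.09% lower, and 3 members had an unadjusted p below 0.05, as did 23.4% of all genes.

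The split between higher and lower members depended on scaling for ethanol. With limma on log2(TPM + 1), 2 members rose and 6 fell in EtOH against CT livers, where 4.5% of all genes rose, 25.8% fell and their median shifted to -0.15 on the log2 scale. With library sizes alone 3 members rose and 4 fell, against 8.69% and 19.3% of all genes, so the split among all genes moved in the same direction. The same TPM scale gave 9 higher and 11 lower members in DE against CT, against 16.5% and 17.5% of all genes, and 11 higher and 10 lower in DE against EtOH, against 24% and 6.5%. In DEHP against CT livers library sizes alone, DESeq2 size factors and the TPM scale each gave 11 higher and 7 lower members, where 13.6 to 15.1% of all genes rose and 8.54 to 12.1% fell. None of the 61 member and comparison pairs called by edgeR changed direction under any of the 23 alternatives run for each pair, and 47 of them were called under all of these.

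**Figure D1:**
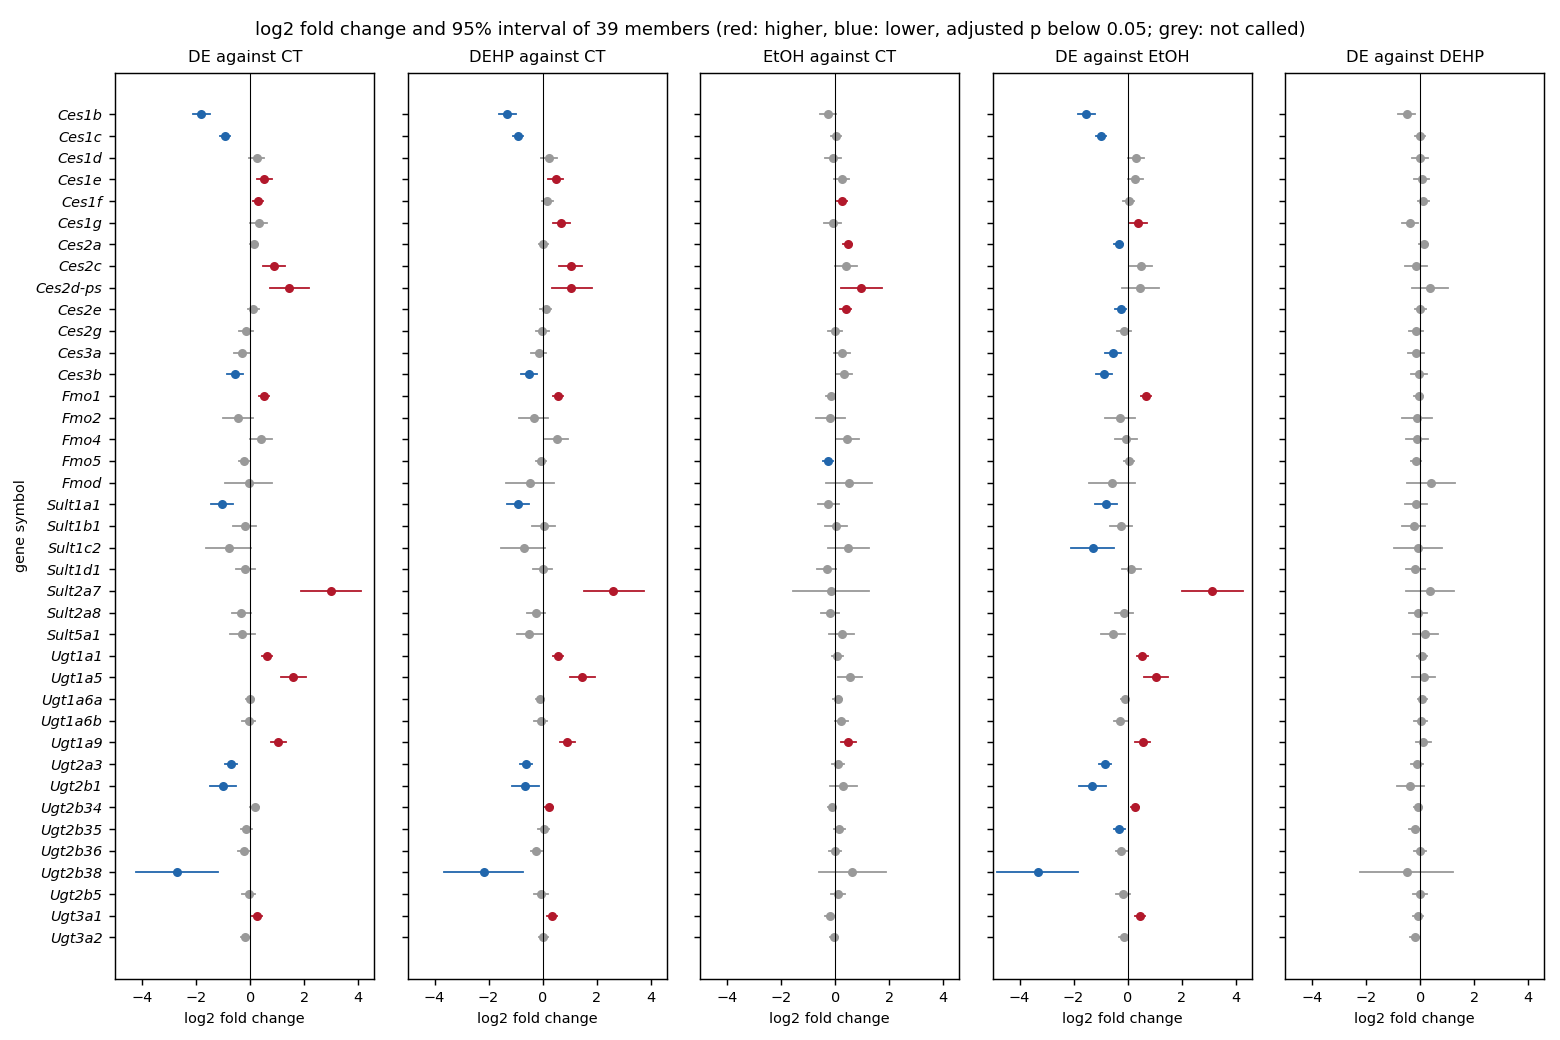
The log2 fold change of each of the 39 members is plotted with its 95% interval in DE against CT, DEHP against CT, EtOH against CT, DE against EtOH and DE against DEHP, with red for higher and blue for lower at an edgeR adjusted p below 0.05 and grey for members not called. In DEHP against CT, red and blue points stand side by side within the Ces1, Ugt2b and Sult families, and the DE against DEHP panel has 0 called members.

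The Ces1 genes lie in a row on chromosome 8 (chr8:93056725-93337209 for these 6 members, RefSeq, GRCm38.p6). In DEHP livers Ces1c and Ces1b fell while Ces1g and Ces1e rose, so the make-up of the family shifted. Ces1c encodes an esterase that mouse liver secretes into plasma, and it had the highest mean level of the family. It had 569, 668 and 807 FPKM (lowest, median and highest of 6 libraries) in DE livers, 563, 689 and 763 FPKM in DEHP livers, 1194, 1270.4 and 1329 FPKM in EtOH livers and 1035, 1307 and 1422 FPKM in CT livers. All 12 libraries with DEHP lay below all 12 without it. The log2 change of Ces1c was -0.94 ± 0.09 (SE) in DE against CT and -0.92 ± 0.09 in DEHP against CT (edgeR adjusted p of 2.71e-08 and 5.29e-08), and 0.04 ± 0.09 in EtOH against CT (adjusted p 0.742). Its share of the summed Ces1 level had a median of 43.0% in DE, 43.0% in DEHP, 62.0% in EtOH and 62.7% in CT livers.

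Ces1b, next to Ces1c on the chromosome, was a low member with medians of 9.195 FPKM in DE, 12.98 in DEHP, 23.6 in EtOH and 29.7 in CT livers, and its log2 change was -1.80 in DE against CT and -1.31 in DEHP against CT by edgeR. Ces1g, which acts on triacylglycerols and affects lipoprotein secretion in mice, moved the other way in DEHP livers. It had 106.8, 137 and 160.0 FPKM in DE livers, 131, 174 and 211 FPKM in DEHP livers, 78.1, 98.2 and 114 FPKM in EtOH livers and 73.5, 119 and 127.5 FPKM in CT livers. The DEHP libraries all lay above the CT libraries and the DE libraries overlapped them. Its log2 change was 0.69 ± 0.15 in DEHP against CT (edgeR adjusted p 0.00138) and 0.32 ± 0.15 in DE against CT (adjusted p 0.102), and the difference between DE and DEHP was -0.38 (95% interval -0.69 to -0.07, adjusted p 0.366). In DE against EtOH it was 0.40 (adjusted p 0.0475), a call that 12 of 23 alternatives did not give, 8 of them leaving out 1 DE or EtOH library, with adjusted p up to 0.121. Ces1e, known as egasyn for holding beta-glucuronidase in the endoplasmic reticulum, had log2 changes of 0.53 in DE against CT and 0.48 in DEHP against CT, and the second was 0.38 without the 3 libraries (edgeR adjusted p 0.0567).

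Ces1f and Ces1d hydrolyse stored triacylglycerol and are known from both liver and adipose tissue. Ces1f had 229, 249 and 308 FPKM in DE livers, 209.8, 239 and 267 FPKM in DEHP livers, 219, 238 and 258 FPKM in EtOH livers and 157, 209 and 255 FPKM in CT livers. The groups overlapped. Its log2 change of 0.26 ± 0.10 in EtOH against CT passed narrowly (edgeR adjusted p 0.046) and was lost when any of CT replicates 1, 2, 3 and 5 or EtOH replicates 1 to 5 was left out, with 0.17 without CT replicate 1 (adjusted p 0.157) and 0.17 without the 3 libraries (adjusted p 0.145). In DE against CT it was 0.29 ± 0.10 (adjusted p 0.0199), 0.19 without CT replicate 1 (adjusted p 0.0885) and 0.23 without DE replicate 2 (adjusted p 0.0703). Ces1d, with medians of 395 FPKM in DE, 411.5 in DEHP, 309 in EtOH and 353 in CT livers, was called in no comparison. In DE against EtOH 4 of 23 alternatives called it higher, at 0.38 to 0.44, namely library sizes alone and the limma fits on FPKM and TPM. The 6 adipocyte markers, with Lep at 0 in every DE and EtOH library and Plin1 and Retn at 0 in every EtOH library, summed to medians of 38.55 FPKM (24.5 to 124) in DE livers, 53.2 (17.7 to 152) in DEHP livers, 6.03 (3.3 to 7.35) in EtOH livers and 11.2 (7.78 to 66.8) in CT livers, and their part in the Ces1 values was not tested.

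In EtOH livers Ces2a and Ces2e rose, and in DEHP livers Ces2c rose. The Ces2 genes and those of Ces3 lie in a second cluster on the same chromosome (chr8:104734003-105093929). Ces2a, an acylglycerol hydrolase and the most abundant Ces2 member, had 247, 266 and 291 FPKM in DE livers, 232, 243 and 289 FPKM in DEHP livers, 309, 318 and 337 FPKM in EtOH livers and 202, 242 and 285 FPKM in CT livers. Every EtOH library lay above every other library. The log2 change was 0.47 ± 0.08 in EtOH against CT (edgeR adjusted p 0.000183), 0.14 ± 0.08 in DE against CT (adjusted p 0.167) and -0.32 ± 0.08 in DE against EtOH (adjusted p 0.00327). Ces2a was the only member whose EtOH and CT libraries did not overlap, where 10.7% of all genes tested did not. Its interaction was -0.34 ± 0.11, which did not pass by edgeR (adjusted p 0.0655) and passed by DESeq2 (-0.35, adjusted p 0.0374) and without CT replicate 6 (-0.40, adjusted p 0.0333). Over all alternatives, 1 member at most passed the interaction.

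Ces2e, with medians of 97.3 FPKM in DE, 92.8 in DEHP, 109 in EtOH and 86.9 in CT livers, had a log2 change of 0.38 in EtOH against CT (edgeR adjusted p 0.00427), -0.26 in DE against EtOH (adjusted p 0.0373, lost in 11 of 23 alternatives, 6 of them leaving out 1 DE or EtOH library, with adjusted p 0.058 without the 3 libraries) and -0.37 ± 0.13 for the interaction (adjusted p 0.0876). Ces2c, which hydrolyses di- and triacylglycerol and is a mouse counterpart of the human intestinal and hepatic CES2, had 53.9, 70.3 and 82.0 FPKM in DE livers, 67.2, 79.8 and 96.7 FPKM in DEHP livers, 24.3, 44.1 and 71.5 FPKM in EtOH livers and 27.4, 35.4 and 63.1 FPKM in CT livers. All DEHP libraries lay above all CT libraries, whereas the EtOH libraries spread from below the lowest CT library into the DEHP range. Its log2 change was 1.03 ± 0.20 in DEHP against CT (edgeR adjusted p 0.000433), 0.87 ± 0.20 in DE against CT (adjusted p 0.00135) and 0.40 ± 0.20 in EtOH against CT (adjusted p 0.134). Without CT replicate 1, which held the highest CT value, the ethanol change was 0.58 (adjusted p 0.0256). Without the 3 libraries it was 0.57 (adjusted p 0.0211), and DE against EtOH was then called too, at 0.54 (adjusted p 0.0197). The 5 intestinal epithelium markers listed, with Lct and Alpi at 0 in every DE, EtOH and CT library, summed to medians of 119 FPKM in DE, 98.3 in DEHP, 73.2 in EtOH and 61.8 in CT livers, and their part in the Ces2c values was not tested. The pseudogene Ces2d-ps stayed at or below 2.29 FPKM in every library. It reached 1 FPKM in 4 DE, 4 DEHP, 3 EtOH and 0 CT libraries. It thus passed the level limit through the treated groups alone, and its rises against CT are partly built into that filter. Its log2 changes were 1.43 in DE against CT, 1.06 in DEHP against CT and 0.96 in EtOH against CT. The last 2 lost the edgeR call without CT replicate 1 (1.03 and 0.93, adjusted p of 0.0542 and 0.0812). Leaving out other single libraries also ended those calls, 5 libraries in all for DEHP against CT and 7 for EtOH against CT, and without the 3 libraries together the adjusted p was 0.0867 and 0.0915. Ces2g, with medians between 13.86 and 16.7 FPKM, was called in no comparison.

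In DEHP livers Ces3b fell, and Ces3a was not called. Ces3a, a liver carboxylesterase and the member with the highest mean level, had 558, 858 and 1140 FPKM in DE livers, 745, 939.8 and 1201 FPKM in DEHP livers, 1052, 1155 and 1355 FPKM in EtOH livers and 822, 1065 and 1197 FPKM in CT livers. In DEHP against CT the log2 change was -0.15 ± 0.14 (95% interval -0.44 to 0.136, edgeR adjusted p 0.453), and in DE against EtOH it was -0.55 ± 0.14 (adjusted p 0.00434). Ces3b had 113, 149 and 211 FPKM in DE livers, 114, 145 and 235 FPKM in DEHP livers, 231, 266 and 303 FPKM in EtOH livers and 202, 214 and 269 FPKM in CT livers. The DE libraries all lay below the EtOH libraries, with log2 changes of -0.88 ± 0.14 in DE against EtOH, -0.55 ± 0.14 in DE against CT and -0.50 ± 0.14 in DEHP against CT (edgeR adjusted p of 4.05e-05, 0.00369 and 0.0121).

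Carboxylesterases share sequence, which bears on how reads were divided. Of the 50-base windows of the longest GENCODE M21 transcript, 30.9% for Ces3a and 26.1% for Ces3b also occurred in the other, and 42.2% for Ces2c and 76.9% for Ces2d-ps occurred in other genes, so these values are less certain than those of Ces1g (1.67%) or Ces1f (1.6%). Ces2a (22.2%), Ces1c (17%) and Ces1b (11.6%) lay between. The summed level depends less on how reads were divided within a family, but reads shared with genes outside it, such as Gm7208 for Ces2a, can still move. Summed Ces3 had medians of 1008 FPKM in DE, 1070 in DEHP, 1432 in EtOH and 1273 in CT livers, and summed Ces2 had 447 FPKM in DE, 432 in DEHP, 496 in EtOH and 376 in CT livers. Every EtOH library exceeded every CT library for summed Ces2 (452 to 534 FPKM against 357 to 430.0 FPKM).

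**Figure D2:**
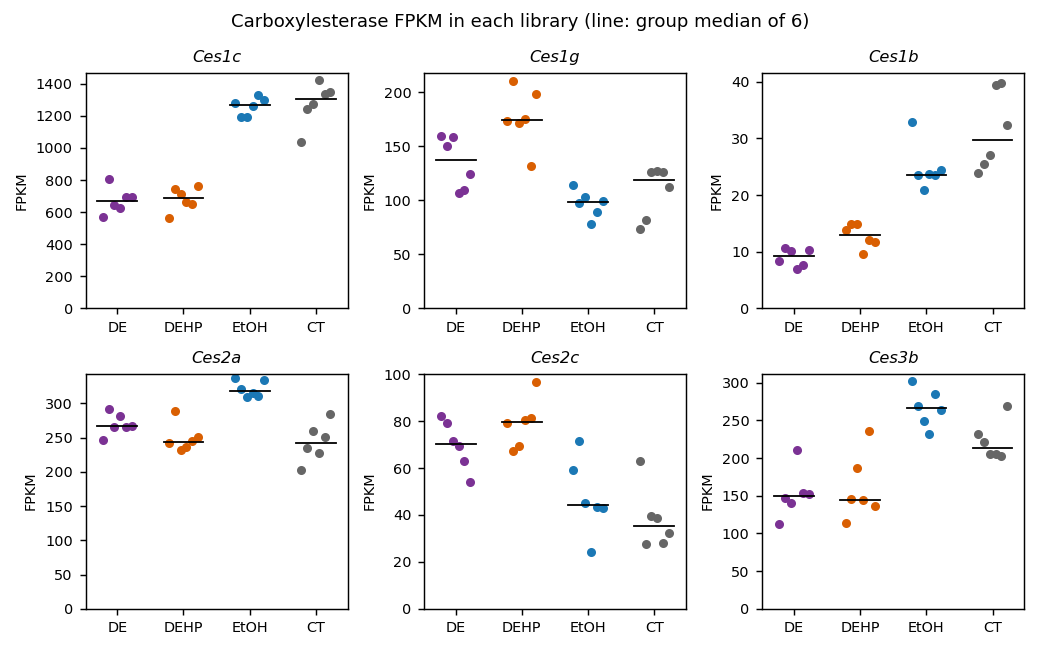
FPKM of Ces1c, Ces1g, Ces1b, Ces2a, Ces2c and Ces3b is plotted for each of the 6 libraries of the DE, DEHP, EtOH and CT groups, with a line at the group median. Ces1c and Ces1b are low in DE and DEHP libraries, Ces2a is highest in the 6 EtOH libraries, and Ces2c is above the CT range in all DEHP libraries.

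The Ugt1a members are alternative transcripts of 1 locus on chromosome 1 (chr1:88070779-88220002), each with its own promoter and first exon spliced to shared downstream exons. In DEHP livers Ugt1a1, Ugt1a5 and Ugt1a9 rose, and Ugt1a6a and Ugt1a6b were not called in any comparison. To show how different the starts are, the 4 promoters that RefSeq (GRCm38.p6) gave for these members are printed from 250 bases before to 50 bases after the start, all on the plus strand: chr1:88211709-88212008 for Ugt1a1, chr1:88165762-88166061 for Ugt1a5, chr1:88134559-88134858 for Ugt1a6a and chr1:88070529-88070828 for Ugt1a9. Capitals mark matches on either strand to the nuclear receptor half-site AGGTCA, the aryl hydrocarbon receptor core GCGTG, the antioxidant response core TGACNNNGC or the HNF1 half-site GTTAAT.
Ugt1a1: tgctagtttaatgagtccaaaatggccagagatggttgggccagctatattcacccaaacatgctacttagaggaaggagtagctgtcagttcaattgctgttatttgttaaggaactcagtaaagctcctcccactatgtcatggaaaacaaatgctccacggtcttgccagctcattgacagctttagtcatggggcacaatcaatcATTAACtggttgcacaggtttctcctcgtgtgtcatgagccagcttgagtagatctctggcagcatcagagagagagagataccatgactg
Ugt1a5: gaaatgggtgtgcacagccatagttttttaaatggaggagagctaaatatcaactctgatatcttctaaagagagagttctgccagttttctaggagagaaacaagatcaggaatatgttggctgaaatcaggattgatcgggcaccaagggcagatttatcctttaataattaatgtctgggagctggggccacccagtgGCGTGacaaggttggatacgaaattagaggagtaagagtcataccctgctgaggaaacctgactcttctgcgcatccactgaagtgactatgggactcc
Ugt1a6a: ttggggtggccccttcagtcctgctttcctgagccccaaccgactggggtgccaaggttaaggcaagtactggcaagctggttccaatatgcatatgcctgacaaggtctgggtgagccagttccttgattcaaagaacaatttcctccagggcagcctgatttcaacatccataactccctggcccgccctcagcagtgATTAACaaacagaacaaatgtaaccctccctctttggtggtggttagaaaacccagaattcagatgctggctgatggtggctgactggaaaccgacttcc
Ugt1a9: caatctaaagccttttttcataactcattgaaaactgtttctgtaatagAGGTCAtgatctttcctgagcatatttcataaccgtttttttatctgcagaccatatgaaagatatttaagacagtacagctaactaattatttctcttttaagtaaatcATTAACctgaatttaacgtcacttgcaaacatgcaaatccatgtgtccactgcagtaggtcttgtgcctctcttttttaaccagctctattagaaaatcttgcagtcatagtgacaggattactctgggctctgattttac
Global alignments of these promoters had between 45.2% and 50.3% identical positions. Ugt1a9 held AGGTCA and GTTAAT (as its reverse complement), Ugt1a1 and Ugt1a6a held GTTAAT, and Ugt1a5 held GCGTG. Of all 32851 RefSeq promoters of the same length, 16.3% held AGGTCA, 32.4% GCGTG, 12.4% TGACNNNGC and 7.1% GTTAAT. Of the 35 promoters found for 31 members, 10 held AGGTCA, 3 held GCGTG, 0 held TGACNNNGC and 8 held GTTAAT. These are counts of letters in a window and no measure of binding.

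Ugt1a1, the enzyme that conjugates bilirubin, had 280.1, 313 and 359 FPKM in DE livers, 251, 301 and 369 FPKM in DEHP livers, 183, 207 and 223 FPKM in EtOH livers and 178, 206 and 222 FPKM in CT livers. All libraries with DEHP lay above all libraries without it, and the EtOH and CT ranges were nearly the same. The log2 change was 0.63 ± 0.09 in DE against CT, 0.57 ± 0.09 in DEHP against CT and 0.09 ± 0.09 in EtOH against CT (edgeR adjusted p of 9.92e-06, 6.17e-05 and 0.508). Ugt1a5 had the smallest adjusted p of the higher members in DEHP against CT. It had 37.5, 57.5 and 79.3 FPKM in DE livers, 32.6, 49.1 and 79.4 FPKM in DEHP livers, 16.5, 27.9 and 32.2 FPKM in EtOH livers and 13.5, 17.8 and 26.1 FPKM in CT livers. Again no library with DEHP fell within the range of the others. For Ugt1a5 the log2 change was 1.60 ± 0.22 in DE against CT, 1.47 ± 0.22 in DEHP against CT and 0.55 ± 0.22 in EtOH against CT (edgeR adjusted p of 3.98e-06, 1.96e-05 and 0.0579). The ethanol change was called by DESeq2 (0.56, adjusted p 0.0322). Without EtOH replicate 3, CT replicate 2 or CT replicate 3 it also passed (edgeR adjusted p of 0.0315, 0.0315 and 0.0412).

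Ugt1a9, which conjugates bulky phenols, had 74.1, 79.1 and 113 FPKM in DE livers, 65.4, 83.5 and 98.0 FPKM in DEHP livers, 47.1, 58.0 and 69.0 FPKM in EtOH livers and 33.2, 43.0 and 52.2 FPKM in CT livers. The DE and DEHP libraries lay above the CT libraries, the DE libraries also lay above the EtOH libraries, and EtOH and CT overlapped. The log2 change was 1.04 ± 0.14 in DE against CT, 0.92 ± 0.14 in DEHP against CT and 0.49 ± 0.14 in EtOH against CT (edgeR adjusted p of 2.69e-06, 2.38e-05 and 0.011). The ethanol call was lost on the TPM scale (0.33, adjusted p 0.0742). Ugt1a6a and Ugt1a6b, which conjugate small planar phenols, had log2 changes of -0.10 (95% interval -0.25 to 0.06) and -0.08 (95% interval -0.32 to 0.16) in DEHP against CT. Their medians were 33.0 and 101.2 FPKM in DE, 32.1 and 97.5 FPKM in DEHP, 34.3 and 118 FPKM in EtOH and 35.3 and 101 FPKM in CT livers.

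Between 58.2% and 100% of the windows of a Ugt1a transcript occurred in other genes, with no unique window for the longest Ugt1a6a transcript, and the expected counts of Ugt1a1, Ugt1a6a, Ugt1a6b and Ugt1a9 were whole numbers, within 1e-08, in no library. The division of reads between the Ugt1a members is therefore uncertain. Summed over the 5 members, the level ran from 531 to 666 FPKM in DE livers and 487 to 662 FPKM in DEHP livers, against 406 to 466 FPKM in EtOH livers and 333 to 457 FPKM in CT livers, so the libraries with DEHP lay above the rest for the sum too.

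**Figure D3:**
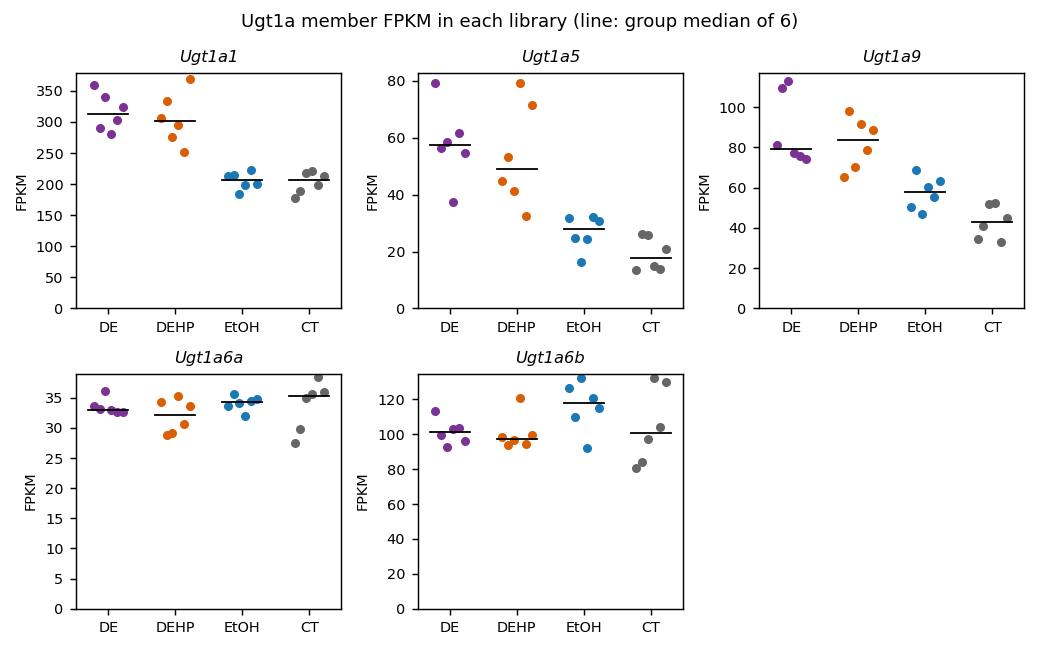
FPKM of the 5 Ugt1a members is plotted for each of the 6 libraries of the DE, DEHP, EtOH and CT groups, with a line at the group median. Ugt1a1, Ugt1a5 and Ugt1a9 are above the CT range in all 12 libraries with DEHP, whereas Ugt1a6a and Ugt1a6b overlap across the 4 groups.

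Ugt2 enzymes conjugate steroids, bile acids and fatty acids, and in DEHP livers Ugt2a3, Ugt2b1 and Ugt2b38 fell while Ugt2b34 rose slightly. Ugt2a3, a bile acid conjugating enzyme in human, had 46.9, 62.2 and 66.5 FPKM in DE livers, 40.7, 69.2 and 75.2 FPKM in DEHP livers, 91.1, 103 and 108 FPKM in EtOH livers and 86.4, 96.2 and 115 FPKM in CT livers. All libraries with DEHP lay below all libraries without it. Its log2 change was -0.71 ± 0.11 in DE against CT, -0.60 ± 0.11 in DEHP against CT and 0.12 ± 0.11 in EtOH against CT (edgeR adjusted p of 1.97e-05, 0.000211 and 0.419). Ugt2b1, a hepatic enzyme of steroid and bile acid conjugation, was 2.01-fold lower in DE than in CT livers and had a log2 change of -1.30 in DE against EtOH, and its change in DEHP against CT of -0.64 passed narrowly (edgeR adjusted p 0.0483). That call was lost in 14 of 23 alternatives, 10 of them leaving out any 1 of all DEHP and CT libraries but DEHP replicate 5 and CT replicate 2, with adjusted p up to 0.107 among these 10. Without the 3 libraries it was -0.55 (adjusted p 0.151).

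Ugt2b5 was the most abundant Ugt2b member and was called in no comparison, whereas Ugt2b38, a low member that resembles it, fell in DE and DEHP livers. To show that resemblance, the promoters of both are printed from RefSeq (GRCm38.p6), both on the minus strand, at chr5:87140291-87140590 for Ugt2b5 and chr5:87424154-87424453 for Ugt2b38. Capitals mark matches to the same 4 motifs.
Ugt2b5: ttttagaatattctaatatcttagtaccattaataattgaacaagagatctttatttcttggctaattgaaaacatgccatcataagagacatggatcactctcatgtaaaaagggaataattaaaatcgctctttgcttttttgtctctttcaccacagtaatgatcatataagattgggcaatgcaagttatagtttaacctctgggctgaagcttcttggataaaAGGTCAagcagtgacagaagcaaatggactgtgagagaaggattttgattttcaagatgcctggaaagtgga
Ugt2b38: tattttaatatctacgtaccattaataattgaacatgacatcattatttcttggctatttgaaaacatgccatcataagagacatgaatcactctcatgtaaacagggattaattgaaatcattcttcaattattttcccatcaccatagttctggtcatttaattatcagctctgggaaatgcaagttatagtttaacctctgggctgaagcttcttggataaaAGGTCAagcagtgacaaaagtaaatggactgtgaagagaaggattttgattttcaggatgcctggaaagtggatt
Their global alignment had 84.2% identical positions, the only motif found in either was AGGTCA, and the windows start 283863 bases apart. Ugt2b5 had 302, 375 and 459 FPKM in DE livers, 308, 376 and 459 FPKM in DEHP livers, 351, 402 and 445 FPKM in EtOH livers and 318, 383 and 491 FPKM in CT livers. Its log2 change was -0.06 ± 0.12 in DE against CT and -0.06 ± 0.12 in DEHP against CT (95% interval -0.31 to 0.195, edgeR adjusted p 0.762).

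Ugt2b38 was listed at 0 FPKM in 1 DE library, with a median of 0.26 and a highest value of 3.46 FPKM in DE livers. It had 0.26, 0.51 and 5.65 FPKM in DEHP livers, 7.32, 8.815 and 10.34 FPKM in EtOH livers and 0.83, 4.495 and 16.8 FPKM in CT livers. The DE libraries lay below all EtOH libraries, and CT overlapped every other group. The log2 change was -3.33 ± 0.73 in DE against EtOH, -2.69 ± 0.74 in DE against CT and -2.19 ± 0.71 in DEHP against CT (edgeR adjusted p of 0.00108, 0.00567 and 0.0235). Without CT replicate 1, its highest library, the DEHP change was -1.57 (adjusted p 0.1), and without DEHP replicate 1, 2 or 6 the adjusted p was 0.0506, 0.0541 or 0.0555. Without DEHP replicate 5 the log2 change was -3.62 and still passed, and without the 3 libraries with muscle or pancreas transcripts it was -1.37 (adjusted p 0.169). Reads of Ugt2b38 may be shared with Ugt2b5, since 37.4% of its 50-base windows occurred in other genes and its expected counts above 0 were whole, within 1e-08, in no library.

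Ugt2b34 had 139, 156 and 180.4 FPKM in DE livers, 148, 167 and 199 FPKM in DEHP livers, 115, 123 and 134 FPKM in EtOH livers and 132, 141 and 155 FPKM in CT livers. Its log2 change of 0.23 ± 0.07 in DEHP against CT passed (edgeR adjusted p 0.0188) and was 0.20 without CT replicate 1 (adjusted p 0.0587), 0.19 without DEHP replicate 4 (adjusted p 0.0658) and 0.20 without the 3 libraries (adjusted p 0.08). In DE against EtOH it was 0.29 ± 0.07 (adjusted p 0.0039). Ugt2b35 changed in 1 comparison, by -0.30 in DE against EtOH (edgeR adjusted p 0.023), a call lost in 9 of 23 alternatives, 5 of them leaving out 1 DE or EtOH library. Ugt2b36, with medians between 227 and 255 FPKM, was called in no comparison, and without CT replicate 1 it changed by -0.31 in DEHP against CT and -0.34 in DE against CT (edgeR adjusted p of 0.026 and 0.0112). Without the 3 libraries these adjusted p were 0.0472 and 0.0202.

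Ugt3a enzymes use other sugar donors than glucuronic acid in human. Ugt3a1 had 48.6, 51.5 and 54.4 FPKM in DE livers, 49.1, 53.2 and 63.9 FPKM in DEHP livers, 28.6, 36.4 and 41.0 FPKM in EtOH livers and 32.5, 43.9 and 48.9 FPKM in CT livers. The DEHP libraries lay just above the CT libraries, with a log2 change of 0.36 ± 0.09 (edgeR adjusted p 0.0042). In DE against EtOH the change was 0.45 ± 0.09 (adjusted p 0.0005), and in DE against CT it was 0.27 ± 0.09 (adjusted p 0.0213) with 0.17 without CT replicate 1 (adjusted p 0.108) and adjusted p of 0.0505 and 0.0621 without CT replicate 2 and DE replicate 5. Without the 3 libraries it was 0.17 in DE against CT (adjusted p 0.126), and EtOH against CT was called at -0.27 (adjusted p 0.0242). Ugt3a2, the more abundant of the pair, had 112, 125 and 134 FPKM in DE livers, 132, 144 and 161 FPKM in DEHP livers, 116, 128 and 143 FPKM in EtOH livers and 116, 144 and 164 FPKM in CT livers and was called in no comparison, but without the 3 libraries its log2 change in DE against CT was -0.25 (edgeR adjusted p 0.021).

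Of 7 sulfotransferases, Sult1a1 fell and Sult2a7 rose in both DE and DEHP against CT livers, and the others were not called in these comparisons. Sult1a1 sulfates phenols. It had 99.8, 108 and 139 FPKM in DE livers, 39.8, 136 and 159.5 FPKM in DEHP livers, 161, 177 and 250.2 FPKM in EtOH livers and 163, 233 and 265 FPKM in CT livers. All libraries with DEHP lay below all libraries without it, and DEHP replicate 1 was far below the other DEHP libraries. The log2 change was -1.04 ± 0.20 in DE against CT, -0.90 ± 0.20 in DEHP against CT and -0.25 ± 0.19 in EtOH against CT (edgeR adjusted p of 0.000209, 0.00145 and 0.34). Without DEHP replicate 1, in which Kupffer cell markers summed to 220.5 FPKM against 79.4 to 90.1 FPKM in the other DEHP libraries, the DEHP change was -0.72 (adjusted p 0.000129).

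Sult2 enzymes sulfate bile acids and steroids. Sult2a7 had 2.49, 9.87 and 22.7 FPKM in DE livers, 3.28, 8.415 and 17.5 FPKM in DEHP livers, 0.32, 1.055 and 2.25 FPKM in EtOH livers and 0.32, 1.59 and 2.54 FPKM in CT livers. Levels varied widely among the DE libraries, and the EtOH and CT values rest on 1 to 12 and 1 to 13 expected counts per library. The DEHP libraries all lay above the CT libraries and the DE libraries above the EtOH libraries, while DE and CT overlapped at a single DE library. The log2 change was 2.97 ± 0.54 in DE against CT, 2.61 ± 0.54 in DEHP against CT and 3.13 ± 0.55 in DE against EtOH (edgeR adjusted p of 0.000114, 0.000842 and 9.09e-05), the largest rise of any member in each of these comparisons. Sult2a8, a bile acid sulfotransferase of mouse liver and the most abundant Sult member on average, had 123.5, 188 and 236 FPKM in DE livers, 114, 204 and 264 FPKM in DEHP livers, 165, 184 and 230.0 FPKM in EtOH livers and 171, 239 and 294 FPKM in CT livers and was called in no comparison.

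Sult1c2, at 0.1 to 2.46 FPKM in all libraries, was called once, at -1.29 in DE against EtOH, and without the 3 libraries also in DE against CT, at -1.07 (edgeR adjusted p 0.049). Sult1d1, a catecholamine sulfotransferase in mouse, had medians of 35.9 FPKM in DE, 40.6 in DEHP, 30.2 in EtOH and 40.8 in CT livers. It was not called, but without CT replicate 1 its log2 change in EtOH against CT was -0.46 (edgeR adjusted p 0.0226), and without the 3 libraries both EtOH against CT and DE against CT were called, at -0.465 and -0.41 (adjusted p of 0.0211 and 0.0344). Sult1b1, which acts on thyroid hormones, and Sult5a1 had group medians between 4.68 and 8.82 FPKM and were called in no comparison. For Sult5a1, 4 of 23 alternatives gave a lower call in DE against EtOH, among them DESeq2 (-0.55, adjusted p 0.0476), and 2 in DEHP against CT.

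Among the flavin-containing monooxygenases Fmo1 rose where DEHP was given and Fmo5 was slightly lower in EtOH livers. Fmo1, a broad oxidase of nitrogen and sulfur centres, had 78.6, 105 and 118 FPKM in DE livers, 93.0, 108 and 116 FPKM in DEHP livers, 53.6, 59.985 and 65.7 FPKM in EtOH livers and 64.05, 71.5 and 75.4 FPKM in CT livers. All libraries with DEHP lay above all libraries without it. Its log2 change was 0.52 ± 0.09 in DE against CT, 0.57 ± 0.09 in DEHP against CT and -0.17 ± 0.09 in EtOH against CT (edgeR adjusted p of 4.19e-05, 2.05e-05 and 0.136). The ethanol change was called in 5 of 23 alternatives, at -0.34 on the TPM scale (limma adjusted p 0.00621) and -0.19 to -0.25 in the others. These others were library sizes alone, both limma FPKM fits and only the groups compared. Fmo5, which performs Baeyer-Villiger oxidations and was the most abundant Fmo member, had 139, 155 and 189 FPKM in DE livers, 159, 181 and 194 FPKM in DEHP livers, 128, 145 and 167 FPKM in EtOH livers and 158, 176 and 216 FPKM in CT livers. Its log2 change of -0.25 ± 0.09 in EtOH against CT (edgeR adjusted p 0.0401) was lost in 10 of 23 alternatives, 7 of them leaving out 1 library (CT replicates 2, 3 and 4 and EtOH replicates 1, 3, 4 and 5), and was -0.19 without CT replicate 4 (adjusted p 0.107). Without the 3 libraries Fmo5 was called in DE against CT at -0.28 (edgeR adjusted p 0.0256). Fmo2, Fmo4 and Fmod stayed at or below 4.34 FPKM in every library and were called in no comparison with all libraries. Fmod in EtOH against CT was 0.52 with all libraries, 1.23 without CT replicate 1 (edgeR adjusted p 0.0112) and 1.23 without the 3 libraries (adjusted p 0.0085), and Fmo4 was called in DEHP against CT in 5 of 23 alternatives, at 0.39 to 0.63.

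**Figure D4:**
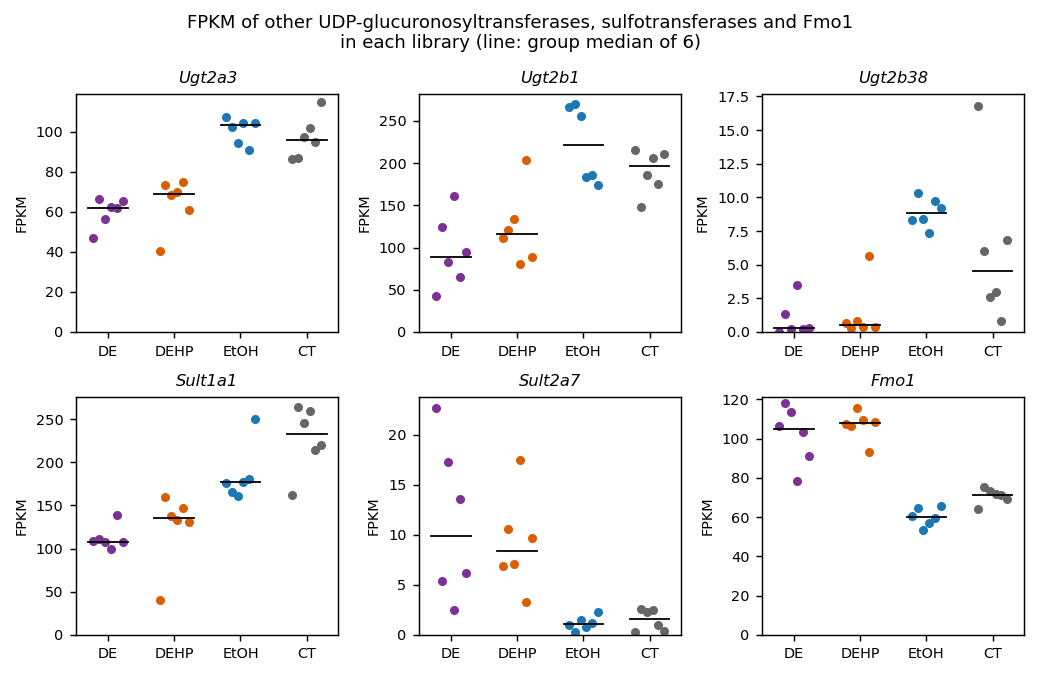
FPKM of Ugt2a3, Ugt2b1, Ugt2b38, Sult1a1, Sult2a7 and Fmo1 is plotted for each of the 6 libraries of the DE, DEHP, EtOH and CT groups, with a line at the group median. Ugt2a3 and Sult1a1 are below the CT range and Fmo1 above it in all 12 libraries with DEHP, and Ugt2b38 spreads from 0.83 to 16.8 FPKM among CT libraries.

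Levels were also summed per library over whole families. Summed Ces1 had medians of 1511 FPKM in DE, 1630.0 in DEHP, 1988 in EtOH and 2098 in CT livers. Its ranges in DE (1427 to 1920 FPKM) and DEHP livers (1374 to 1744 FPKM) overlapped that in CT livers (1588 to 2340 FPKM). Summed Ugt1a had 584 FPKM in DE, 578 in DEHP, 449.5 in EtOH and 408 in CT livers, and summed Sult 348.5 FPKM in DE, 415.5 in DEHP, 419 in EtOH and 513.5 in CT livers. For Sult too, the DE (298 to 441 FPKM) and DEHP (193 to 468 FPKM) ranges overlapped the CT range (365 to 619 FPKM). Summed Ugt2b differed less, with 907 FPKM in DE, 944 in DEHP, 1059 in EtOH and 1024 in CT livers, and summed Fmo had 262 FPKM in DE, 293 in DEHP, 211 in EtOH and 253 in CT livers. No test was run on the sums. Over the set, 14 of 39 members were called in no comparison, as were 42.6% of all genes, with log2 changes between -0.58 and 0.52, and 12 members did not overlap between DEHP and CT libraries (9.96% of all genes tested), 10 between DE and CT (16.1%) 16 between DE and EtOH (15.7%) and 0 between DE and DEHP (0.664%).

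**Figure D5:**
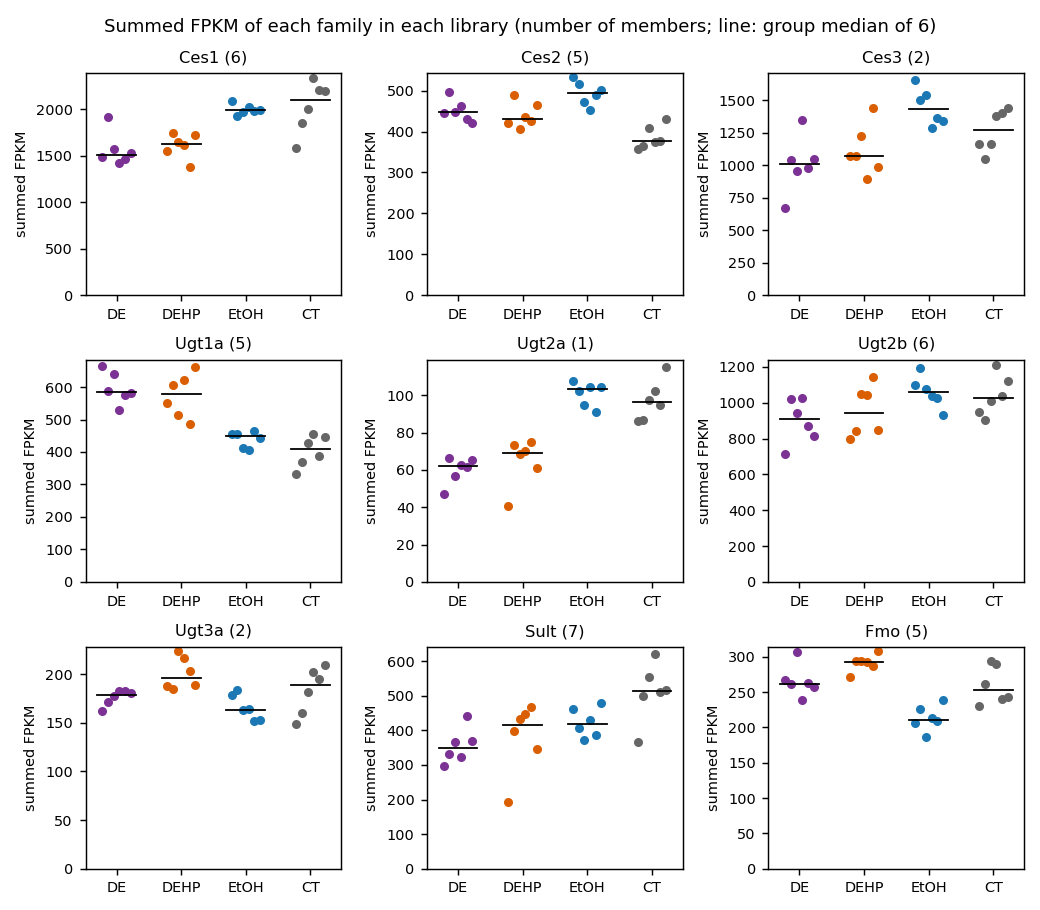
The summed FPKM of each family is plotted for each of the 6 libraries of the DE, DEHP, EtOH and CT groups, with the number of members in brackets and a line at the group median. Summed Ugt1a is at or above 487 FPKM in all libraries with DEHP and at or below 466 FPKM in all others, and summed Ugt2a, which is Ugt2a3 alone, shows the reverse order.

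Genes that supply the conjugation reactions were read from fixed lists, with the share of all genes tested beside each count. In DEHP against CT 14.4% of all genes rose and 11.6% fell. The shares were 19.3% and 17.4% in DE against CT and 14.2% and 14.5% in EtOH against CT. Of 7 genes of UDP-glucuronic acid supply, 2 rose and 2 fell in DEHP against CT livers, with a median log2 change of -0.28. Ugdh, which makes UDP-glucuronic acid, had medians of 123 FPKM in DE, 129 in DEHP, 65.9 in EtOH and 66.9 in CT livers and a log2 change of 0.92 ± 0.09 in DEHP against CT (edgeR adjusted p 2.18e-08), whereas Ugp2, which makes its precursor UDP-glucose, changed by -0.51 ± 0.13 (adjusted p 0.00522). Gusb, the glucuronidase that Ces1e retains, changed by -0.295 in that comparison (adjusted p 0.0135), and Slc35d1, a carrier of UDP-sugars into the endoplasmic reticulum, rose by 0.21 in DEHP against CT and 0.44 in EtOH against CT. With both agents Slc35d1 changed by 0.002 in DE against CT and -0.44 in DE against EtOH, and its interaction was -0.65 ± 0.09 (edgeR adjusted p of 0.983, 1.2e-05 and 0.000131). In DE against CT livers 1 of the 7 rose and 2 fell, and in EtOH against CT 1 rose.

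Of 10 measured genes of sulfate activation and PAPS supply, 2 rose in DEHP against CT livers, the sulfite oxidase gene Suox by 0.635 ± 0.10 and the thiosulfate sulfurtransferase gene Tst by 0.46 ± 0.09 (edgeR adjusted p of 2.26e-05 and 0.000815), and 2 rose in EtOH against CT, Tst and the PAPS transporter gene Slc35b2 (0.59 ± 0.11, adjusted p 0.000554). Papss1, a PAPS synthase gene, was called in DE against CT at 0.635 ± 0.13 and had an interaction of 0.67 ± 0.19 (edgeR adjusted p of 0.000501 and 0.0321). Of 11 other esterases and hydrolases, 5 rose and 1 fell in DEHP against CT, 5 rose and 1 fell in DE against CT, and 2 fell in EtOH against CT. For both lists, the shares of all genes that rose and fell were 14.4% and 11.6% in DEHP against CT. They were 19.3% and 17.4% in DE against CT and 14.2% and 14.5% in EtOH against CT. The epoxide hydrolase genes Ephx2 and Ephx1 rose by 0.95 ± 0.11 and 0.80 ± 0.165 in DEHP against CT (adjusted p of 4.8e-07 and 0.000815), and Bphl and Esd, 2 further hydrolase genes, by 0.47 ± 0.08 and 0.36 ± 0.08. In EtOH against CT, Bche and Pon3 changed by -0.35 and -0.33.

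Of 19 other conjugation and oxidation enzymes, 4 rose and 4 fell in DEHP against CT, 4 rose and 4 fell in DE against CT, and in EtOH against CT the smallest edgeR adjusted p was 0.0549. The aldehyde oxidase gene Aox3 changed by -0.84 ± 0.19, the glycine acyltransferase gene Glyat by -0.42 ± 0.09, the monoamine oxidase gene Maoa by 0.63 ± 0.135 and the nicotinamide methyltransferase gene Nnmt by -0.66 ± 0.16 in DEHP against CT (edgeR adjusted p of 0.00181, 0.00136, 0.00117 and 0.00295). Of 13 xenobiotic receptors and partners, 2 rose and 2 fell in DEHP against CT and 5 rose and 3 fell in EtOH against CT. In DE against CT 2 rose and 5 fell, and in DE against EtOH 1 rose and 5 fell. For the interaction 1 was higher and 3 lower. The shares of all genes were 14.4% and 11.6% in DEHP against CT and 14.2% and 14.5% in EtOH against CT. They were 19.3% and 17.4% in DE against CT, 15.1% and 12.7% in DE against EtOH, and 3.32% and 3.09% for the interaction. Por, the electron donor of cytochromes P450, changed by 0.64 ± 0.14 in DEHP against CT and 0.61 ± 0.14 in EtOH against CT, and Nr1i2, which encodes PXR, by -0.64 ± 0.10 in EtOH against CT (edgeR adjusted p of 0.00165, 0.00292 and 8.4e-05). The bile acid receptor gene Nr1h4 changed by 0.47 ± 0.10 in EtOH against CT and -0.35 ± 0.10 in DEHP against CT (adjusted p of 0.00122 and 0.0107).

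Most members were well above the level limit: 34 of 39 reached 1 FPKM in all 24 libraries, and the others did so in 9 (Fmod), 11 (Ces2d-ps), 14 (Ugt2b38 and Sult1c2) and 18 (Sult2a7) libraries. Ces2d-ps, with 0 CT libraries at 1 FPKM, passed only through the treated groups. Fmod reached 1 FPKM in 5 EtOH libraries and 1 CT library. Sult2a7 did so mostly where it was high, in 6 DE, 6 DEHP, 3 EtOH and 3 CT libraries. Just outside the limit stood Ces2b, with 5 libraries at 1 FPKM and at most 3.78 FPKM, and Ugt2b37, with 4 libraries and at most 2.39 FPKM. Sult3a1 reached 1 FPKM in 1 library, at 1.95 FPKM, and the other 13 matching genes in 0 libraries.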

How the data were processed

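Liver RNA of 24 samples was sequenced, 6 in each of the DE, DEHP, EtOH and CT groups. The authors deposited, per gene and library, an expected count and an FPKM value, per the file headers. The submitters' processing notes name mm10, GRCm38 and Cuffdiff, and the program that divided shared reads was not given in the sources used here. Any gene not listed in a library was set to 0.

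Expected counts were rounded and tested with edgeR 4.0.16 (TMM, quasi-likelihood, all 4 groups in 1 fit, 20 residual degrees of freedom) in R 4.3.3, over 10697 genes with at least 1 FPKM in at least 6 libraries, with Benjamini-Hochberg adjustment and a threshold of 0.05. The script was checked on simulated counts. Alternatives were DESeq2 1.42.0, limma 3.58.1 on log2(FPKM + 1), log2(FPKM + 0.1) and log2(TPM + 1), other scalings, no filter, a gene length term, only the groups compared, the replicate number as a block, and libraries left out. Promoters and coordinates came from RefSeq (GRCm38.p6, matched by gene ID for 31 and 39 members) and transcript windows of 50 bases from GENCODE M21.

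Members and gene lists were chosen with earlier results of these data known. Values in all groups are given for each family's most abundant member and for the called member with the smallest adjusted p in each direction in DEHP against CT, EtOH against CT and the interaction, with log2 changes for other called members.

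Library totals of 7324793 to 8016662 counts limit low members, and no 2 libraries of a group agreed within counting noise (chi-square per degree of freedom of 6.57 or more).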

Additional observations from a re-analysis of the deposited data

Results flagged for a closer look

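A library far from the other 5 of its group (Dixon's test at the 95% level) was found in 7 of 84 combinations of a named member and a group, and chance flags about 1 in 20. Sult1a1 had 139.26 FPKM in DE replicate 5 against 99.8 to 111 FPKM in the other DE libraries, 39.82 FPKM in DEHP replicate 1 against 130.4 to 159.5 FPKM, and 250.19 FPKM in EtOH replicate 6 against 161 to 180.3 FPKM. Ugt2b38 had 5.65 FPKM in DEHP replicate 5 against 0.26 to 0.83 FPKM, and 16.82 FPKM in CT replicate 1 against 0.83 to 6.81 FPKM. Ces2c had 63.09 FPKM in CT replicate 1 against 27.4 to 39.6 FPKM. Ces2a had 289.23 FPKM in DEHP replicate 2 against 232 to 251 FPKM.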

How the results depend on the processing

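Of 61 calls of a member in a comparison, 47 held in all 23 alternatives and 0 reversed. Members higher in EtOH against CT numbered 3 with library sizes alone, with limma on FPKM with a pseudocount of 1 or 0.1 and without the filter on low values, 2 on the TPM scale, and 3 to 6 when 1 library was left out. Members lower in EtOH against CT numbered 4 with library sizes alone, 2 with either limma FPKM fit, 6 on the TPM scale, 0 with the gene length trend removed, 0 without the filter, 2 with only the groups compared, 3 without the 3 libraries with muscle or pancreas transcripts, and 0 to 3 with 1 library left out. Members lower in DE against CT numbered 11 on the TPM scale, 12 without the 3 libraries and 7 to 11 with 1 library left out, the highest without CT replicate 1. The share of all genes lower in EtOH against CT was 14.5%, and 19.3% with library sizes alone, 16.5 and 16.6% with the limma FPKM fits, 25.8% on the TPM scale, 11.2% with the length trend removed, 8.78% without the filter, 16.0% with only the groups compared and 13.5% without the 3 libraries. The share higher there was 14.2%, and 8.69% with library sizes alone, 10.2% with either limma FPKM fit, 4.5% on the TPM scale and 7.55% without the filter. Members lower in the interaction numbered 1 by DESeq2 (Ces2a) and 0 to 1 with 1 library left out. The cause of these shifts was not tested. With the replicate number as a block, members lower in EtOH against CT numbered 0 (Fmo5 at -0.24, edgeR adjusted p 0.0621). The labels give the replicate number no meaning, and no pairing by number was seen. Deviations from the group mean in same-numbered libraries correlated at a mean r of -0.001 (-0.21 to 0.21) against 0.001 for other pairs. Of 36 same-numbered pairs 6 were over 0.1. A mean r over all genes cannot exclude a weak pairing. On summed TPM, chosen after seeing the data, or without the 3 libraries, 5 of 54 family sum comparisons moved by more than the standard deviation of the treated group. All of them were in EtOH against CT: Ugt2a on TPM was -0.05 and Ces1 -0.13 on the log2 scale. The CT spread was no part of this limit. For summed Ces1 the standard deviation was 54.1 FPKM in EtOH and 275.8 FPKM in CT livers. Shared reads limit Ugt1a, Ces2d-ps, Ces2c, Ugt2b5, Ugt2b38 and Ces3, and to a lesser degree Ces2a, Ces1c and Ces1b. Depth limits Ugt2b38, Ces2d-ps, Sult1c2, Sult2a7 and Fmod.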
